A study of Rattus norvegicus with 16 samples.

Results

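Start-codon peaks were the rows of the deposited m6A peak lists whose annotation names the start codon, 2969 of the 21528 rows of the VCD list and 3073 of the 22316 rows of the CON list (13.8% of either list). A row is a stretch of the genome enriched in RNA immunoprecipitated (IP) for N6-methyladenosine, written m6A, and its value is the log2 enrichment of IP over input. The rows lay in 2965 genes in the VCD list and 3068 genes in the CON list. Both lists shared 2532 of these genes, 85.4% of the VCD genes and 82.5% of the CON genes, and 433 genes had a start-codon row in the VCD list only and 536 in the CON list only.

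The tissue was ovary from 8 rats as the titles number them, 4 labelled VCD and 4 labelled CON, and whether a number stands for 1 animal or a pool is not stated. VCD is 4-vinylcyclohexene diepoxide, an epoxide known to destroy small ovarian follicles in rodents, and the label CON names no vehicle. Each numbered rat gave an IP and an input library of poly(A) RNA, 16 libraries in all, and the sources used here give no strain, age, dose or duration. Mice are mentioned in the series text, but the organism label and gene identifiers are rat. Peak coordinates are the deposited ones with 1 added to each start, so that they count from 1, and these sources state no genome build for them. Each list holds 1 enrichment value per row and group, so enrichment carries no replicate error here and its differences between VCD and CON are described without a test. Expression was available per rat as FPKM, and library sums lay between 406479 and 421628 FPKM in VCD and between 403809 and 414332 FPKM in CON. FPKM keeps no read totals, so the read depth is unknown. Granulosa markers summed to 577 to 1074 FPKM in VCD rats and 646 to 815 FPKM in CON rats, and theca and luteal markers to 7258 to 9964 FPKM in VCD rats and 4495 to 9410 FPKM in CON rats, so both cell types of the ovary were present. Most of the granulosa sum was Inha, which averaged 700 FPKM in VCD and 641 FPKM in CON. The other granulosa markers moved apart. Amh averaged 13.5 FPKM in VCD and 59.5 in CON, Fshr 2.70 and 4.27, Cyp19a1 79.0 and 25.2, and Foxl2 18.0 and 15.2. The sum thus does not show that granulosa content was alike.

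Most m6A in mRNA is written by the complex of Mettl3 and Mettl14 at motifs with the core GGAC, removed by Alkbh5 and Fto, and read by YTH-domain proteins. It is known to gather around stop codons and in long internal exons, and a smaller share lies near the start of the transcript. Next to the cap, Pcif1 writes the related mark m6Am, which m6A antibodies also bind, and the lists do not separate the 2 marks. In the ovary, oocytes store maternal mRNAs, granulosa and theca cells make steroid hormones, and m6A has been studied for its part in mRNA decay during oocyte growth.

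The core motif is shown at the gene starts where described rows begin, because these bases lie at the cap end of the transcript. Of 33 described rows that begin within 10 bases of the gene start, 25 matched a RefSeq gene start of the rat assembly GRCr8, and 5 of those carried GGAC among the first 50 transcribed bases. The 30-base windows below are read 5′ to 3′ on the transcribed strand, with GGAC in capitals. Coordinates of the windows are those of GRCr8 and differ from the coordinates of the peak lists.
Lpar5 (chr4:159558465-159558494, plus strand): ccagctcagagggcaacaGGACaggttcca
Ccr1 (chr8:132439235-132439264, minus strand): actggagcagagaGGACagagaaaacacct
Myorg (chr5:61460252-61460281, minus strand): ggagagaggatcagctggaGGACccttctt
Rps6kb1 (chr10:71865162-71865191, minus strand): catgaggcgacgacggaggcgGGACggctt
Tcf21 (chr1:24520499-24520528, plus strand): gttaaggccaGGACtccaggggtggggaga

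Across all start-codon genes, GGAC on the transcribed strand lay in the first 50 bases of 521 of 2394 matched VCD genes (21.8%) and 525 of 2483 matched CON genes (21.1%). The share was 21.1% of 9757 matched genes at 1 FPKM or more and 18.9% of all 27457 RefSeq entries. On the other strand, where the motif reads GTCC, the shares were 19.1% of VCD genes and 19.2% of CON genes. The longer GGACT, which contains GGAC, lay in 4.80% of VCD genes and 4.79% of CON genes, against 5.56% of all entries. Start-codon genes thus held the motif at about the share of expressed genes. A match is a run of letters and no measured site.

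Start-codon rows were less enriched than stop-codon rows in both groups. Their median log2 enrichment was 2.09 in the VCD list (quartiles 1.77 and 2.79) and 2.04 in the CON list (1.70 and 2.73). Stop-codon rows had medians of 3.11 in the VCD list and 3.01 in the CON list, and all rows together 2.40 and 2.31 in the same order. Rows in the 5′ UTR and the 3′ UTR had medians below those of start-codon rows, at 1.96 and 1.88 in the VCD list and 1.90 and 1.79 in the CON list. The lowest start-codon row stood at 1.18 in the VCD list and 1.19 in the CON list, and the highest at 8.22 and 7.86.

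**Figure D1:**
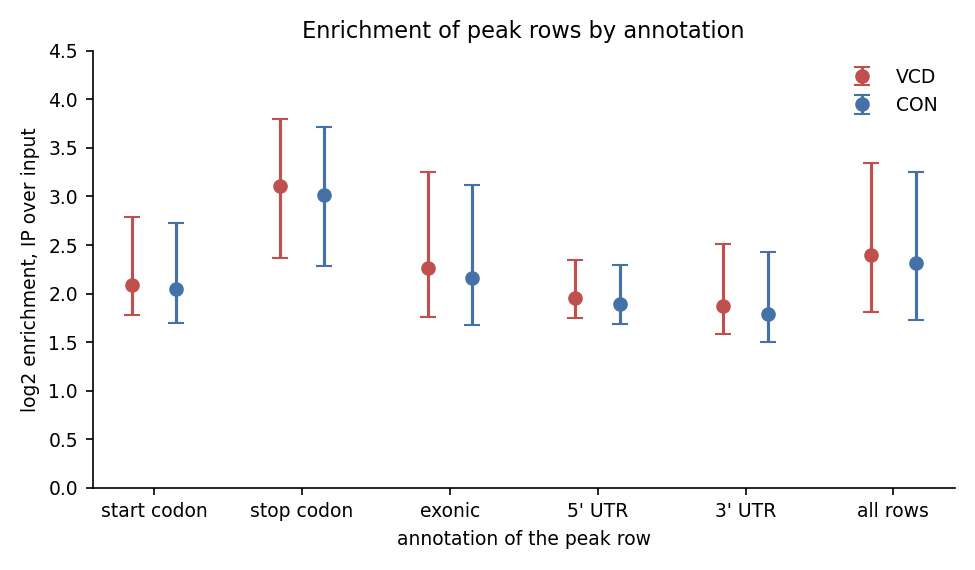
Median log2 enrichment of IP over input (points) with the lower and upper quartile of rows (bars) by annotation, VCD list in red and CON list in blue. Start-codon rows had medians of 2.09 in VCD and 2.04 in CON, below the stop-codon medians of 3.11 in VCD and 3.01 in CON.

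Just over 50% of the start-codon genes also carried a peak at the other end of the reading frame. A stop-codon row in the same list was present in 1609 of 2965 VCD genes (54.3%) and 1636 of 3068 CON genes (53.3%). Genes with a row but no start-codon row carried a stop-codon row about as often, in 55.2% of 9876 VCD genes and 55.3% of 10082 CON genes. Where both were present, the start-codon row was the higher in 514 VCD genes (31.9%) and 532 CON genes (32.5%), and the median of start minus stop was -0.45 in VCD and -0.43 in CON. Start-codon rows were the gene's only row in 595 VCD genes (20.1%) and 645 CON genes (21.0%). Another 913 VCD genes and 977 CON genes also had a 3′ UTR row.

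In several of the genes described for their high start-codon rows, that row was far above the stop-codon row, which the choice favours. Tnrc6c, a scaffold of microRNA-guided silencing, had 4.91 at its start codon and 1.85 at its stop codon in VCD, and 4.65 and 1.81 in CON. Sqle, squalene epoxidase of cholesterol synthesis, had 4.59 at the start and 1.70 at the stop in VCD, against 4.72 and 1.67 in CON. Rbm6, an RNA-binding splicing factor, had 4.55 and 2.35 in VCD and 4.55 and 2.22 in CON. In Gadd45a, a growth-arrest gene, the stop-codon row was the higher, with 2.06 at the start and 3.64 at the stop in VCD and 2.06 and 3.52 in CON. Fyn, a Src-family kinase, had 2.19 and 4.04 in VCD and 2.16 and 4.04 in CON.

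Start-codon rows began at the annotated gene start more often than rows of any other annotation described here. In the VCD list 1152 rows (38.8%) began at the first base of the gene and 63.6% within 50 bases, and in the CON list 1199 rows (39.0%) and 64.6%. Rows in the 5′ UTR began at the first base in 33.8% of VCD rows and 30.6% of CON rows, and stop-codon rows in 8.55% and 8.73%. Only 207 VCD start-codon rows and 222 CON start-codon rows began over 1000 bases into the gene. Among them was Csnk1g1, a casein kinase gene, whose row began 54040 bases in. Enrichment differed little with the distance, with VCD medians of 2.14 at the first base, 2.05 at 1 to 50 bases, 2.02 at 51 to 500 bases and 2.15 beyond, and CON medians of 2.09, 1.99, 1.97 and 2.13.

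**Figure D2:**
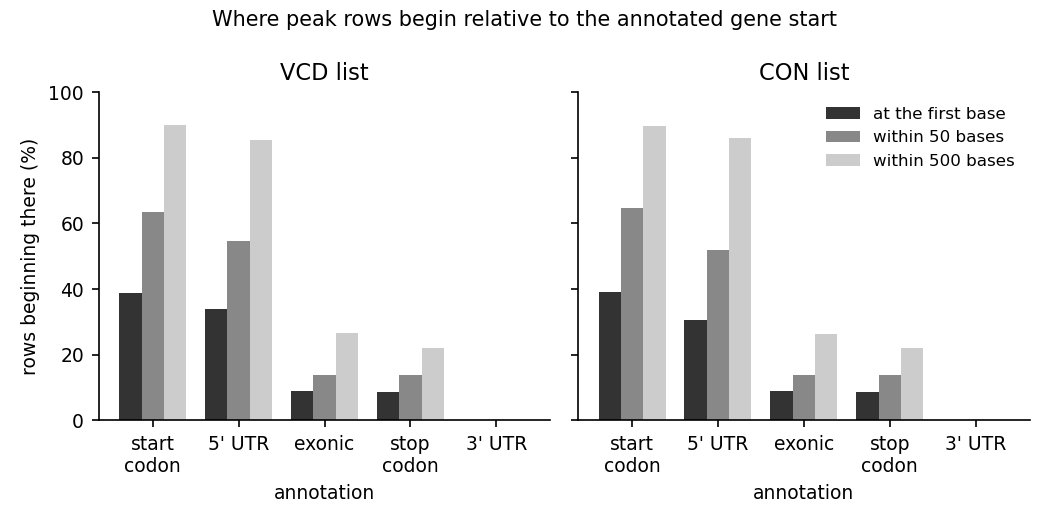
Percent of rows that begin at the annotated gene start, within 50 bases and within 500 bases of it, by annotation, in the VCD list (left) and the CON list (right). Start-codon rows reach 38.8% at the first base and 90.0% within 500 bases in VCD, and 39.0% and 89.7% in CON.

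Spans of rows run over introns, so they measure distance on the genome and not on the transcript. The median span was 6456 bases in the VCD list and 6512 bases in the CON list, and 72 VCD rows and 70 CON rows spanned over 100000 bases. The longest lay in Grin2b, a glutamate receptor subunit gene, with 390408 bases in the VCD list and 390383 bases in the CON list. Rows under 2000 bases whose span is a whole multiple of the 25-base step of the lists were taken to hold no intron, and these had a median of 275 bases over 389 VCD rows and 300 bases over 397 CON rows. Stop-codon rows chosen the same way had a median of 500 bases in both lists. The widest rows at the same coordinates in both lists lay in Colec12, a scavenger collectin, with 167356 bases, Sh3gl2, an endocytic BAR-domain gene, with 162011, Sil1, a nucleotide exchange factor of the endoplasmic reticulum, with 152302, Fyn with 141087 and Schip1 with 138925.

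Genes with a start-codon row were more highly expressed than peak-bearing genes in general, and rows in highly expressed genes were less enriched. The median mean FPKM was 11.7 in VCD libraries for VCD start-codon genes, against 7.44 for all genes with a VCD row, and 11.9 in CON libraries for CON start-codon genes, against 7.79. With rows in 4 groups of equal size by FPKM, from low to high, the median log2 enrichment was 2.39, 2.14, 2.02 and 1.94 in the VCD list and 2.38, 2.09, 1.95 and 1.88 in the CON list. These are descriptions over genes, and input reads enter both quantities.

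Most start-codon rows of a list overlapped a start-codon row of the same gene in the other list. In the VCD list 807 rows (27.2%) had exactly the coordinates of a CON row and 1728 (58.2%) overlapped a CON start-codon row with other ends, while in the CON list these made up 26.3% and 56.2%. A further 94 VCD rows met a stop-codon row in CON, 82 an exonic row and 48 a 5′ UTR row, and 210 (7.07%) overlapped nothing. Of the CON rows, 78 met a stop-codon row in VCD, 125 an exonic row and 61 a 5′ UTR row, and 272 (8.85%) overlapped nothing. Over all annotations the share with no overlap was 8.26% of VCD rows and 12.03% of CON rows.

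**Figure D3:**
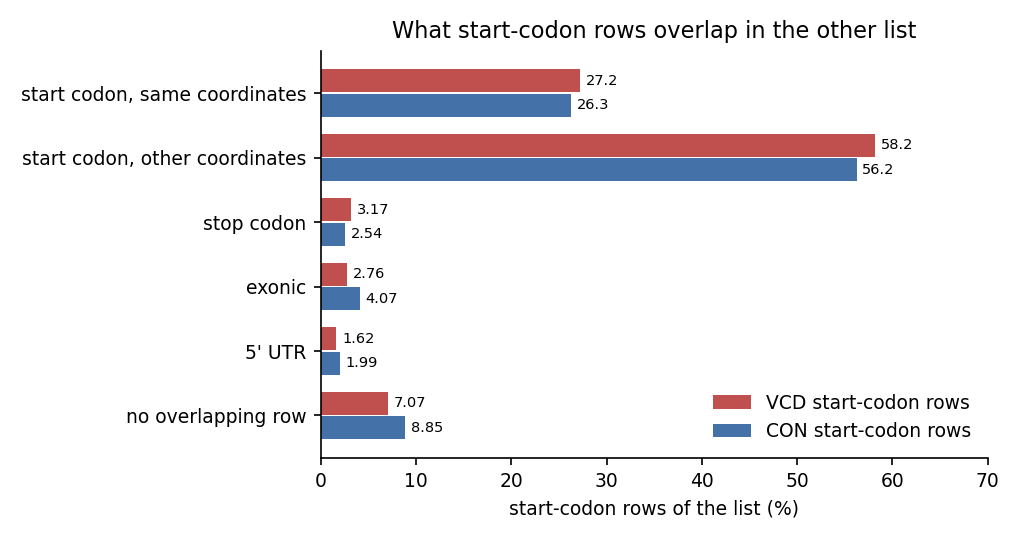
Percent of the start-codon rows of each list by what they overlap on the same strand in the other list, VCD rows in red and CON rows in blue. Rows without any overlap made up 7.07% of the VCD rows and 8.85% of the CON rows.

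A row that covers both the start and the stop codon is listed under the stop codon, so a start-codon row can appear or vanish as neighbouring rows split or merge. Of the 94 VCD rows that met a CON stop-codon row, 79 lay wholly inside it, and 80 were in genes with a separate stop-codon row in the VCD list. Of the 78 CON rows that met a VCD stop-codon row, 55 lay wholly inside it and 62 had a separate CON stop-codon row. Jun, an AP-1 transcription factor, shows the form: the VCD list held a start-codon row of 1339 bases at 3.48 and a stop-codon row of 1725 bases at 4.75 and the CON list a stop-codon row of 3089 bases at 4.45. Fos, its AP-1 partner, had a VCD start-codon row at 1.92 and a stop-codon row at 3.89, against 1 CON stop-codon row at 3.99. In Dusp6, a phosphatase of ERK kinases, the VCD list held 2.64 at the start and 3.64 at the stop, against 1 CON stop-codon row at 3.53. The reverse occurred in Alkbh5, the m6A demethylase, with 1 VCD stop-codon row of 21316 bases at 2.37, against a CON start-codon row of 600 bases at 2.16 and a stop-codon row at 1.91. Incenp, of the chromosomal passenger complex, likewise had 1 VCD stop-codon row at 3.31, against a CON start-codon row at 2.79 and a stop-codon row at 3.16.

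A gene's absence from a list also did not always mean absence of enrichment. This could be looked at for few rows. Of those without overlap, 33 of 210 VCD rows and 24 of 272 CON rows met a row of the authors' deposited table. Zfp420 (chromosome 1, bases 88542035 to 88542384, plus strand), a zinc finger gene, had the highest start-codon row of the VCD list, at 8.22, and no overlapping CON row. The authors' deposited table of differential peaks gave almost the same stretch 8.21 in VCD and 4.59 in CON. Rec8, the meiotic cohesin, had a VCD row at 3.93 and no CON row, and the authors' deposited table gave 3.91 in VCD and 2.16 in CON. Its FPKM was listed at 0 in every VCD library, and in CON libraries at 0, 0.00921, 0.0809 and 0. The other VCD rows without a CON overlap and with the highest values lay in Arpp21 at 3.85, Hgf, the hepatocyte growth factor, at 3.44 and Lrrc29 at 3.18. In the CON list they were Tmem125 at 5.40, Wdr66 at 4.70, Glipr1l1 at 4.61, Lrrc18 at 4.08 and Chdh, choline dehydrogenase, at 3.78.

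At the same coordinates, enrichment was a little higher in VCD, at the start codon as in the rows at large. Over the 807 rows the median log2 enrichment was 2.24 in VCD and 2.18 in CON, and the median of VCD minus CON was 0.08 (quartiles 0.00 and 0.16). VCD was the higher in 606 rows (75.1%), against 4290 of 6028 rows (71.2%) of all annotations, whose median difference was 0.07. The share was 75.9% of stop-codon rows, 74.8% of exonic rows and 58.4% of 3′ UTR rows. With the median of all annotations taken off, the start-codon median was 0.01. Differences of at least 0.5 either way numbered 14 higher and 7 lower in VCD (2.60% of the rows). Of the rows of all annotations 3.04% passed that size, 1.89% higher and 1.14% lower in VCD.

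The highest rows at the same coordinates were ranked by the mean of VCD and CON, so high values in both follow from that choice. Izumo1 (chromosome 1, bases 101603297 to 101604364, plus strand), a sperm-egg fusion protein gene, had 5.52 in VCD and 4.80 in CON. Lpar5 (chromosome 4, bases 157594436 to 157595060, plus strand), a lysophosphatidic acid receptor whose gene start is printed above, had 5.14 in VCD and 4.45 in CON. Fgf7 (chromosome 3, bases 118317761 to 118366872, plus strand), a growth factor of stromal cells, had 4.57 in VCD and 5.13 in CON. Ccr1 (chromosome 8, bases 132997274 to 133002201, minus strand), a chemokine receptor and another of the printed starts, had 4.64 in VCD and 4.56 in CON. Gjc1, a gap-junction protein gene, had 4.48 in VCD and 4.42 in CON, Sidt2, of the lysosomal membrane, 4.36 and 4.33, and Myorg, a glycosidase, 4.35 and 4.26. Their expression spanned a wide range, with Lpar5 at 0.267 ± 0.0957 FPKM in VCD and 0.514 ± 0.156 FPKM in CON and Sqle at 75.4 ± 19.5 FPKM in VCD and 52.2 ± 16.5 FPKM in CON (SD, n = 4 each). Limma gave Sqle an adjusted p of 0.268, and Lpar5 lay under the filter on low values. Izumo1 had no FPKM value, so its input level is unknown. Fgf7 averaged 1.15 FPKM in VCD and 0.616 FPKM in CON, and Ccr1 1.18 FPKM in VCD and 1.24 FPKM in CON.

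Among rows of named genes, Efhc2, a ciliary EF-hand protein gene, had the largest positive difference, with 3.12 in VCD and 2.17 in CON. Atp2a3, a calcium pump, had 2.94 in VCD and 2.14 in CON, Csnk1g1 2.08 and 1.34, and Fam167a 4.35 and 3.62. Ppl, the cell-junction protein periplakin, Mef2a, a MADS-box factor, Chd8, a chromatin remodeller, and Shroom3, an actin regulator, were higher in VCD by 0.70, 0.69, 0.57 and 0.54, after Izumo1 at 0.71 and Lpar5 at 0.69. Epb41l1 (chromosome 3, bases 153875829 to 153893847, minus strand), a membrane-skeleton protein gene, had the largest negative difference of the 807 rows, with 2.01 in VCD and 3.45 in CON. Srp68 (chromosome 10, bases 105222324 to 105228480, minus strand), of the signal recognition particle, followed with 3.44 in VCD and 4.67 in CON. Input FPKM of these 2 genes was close in the groups, at 7.04 ± 1.42 in VCD and 7.54 ± 0.931 in CON for Epb41l1 and at 39.4 ± 1.90 in VCD and 38.4 ± 1.73 in CON for Srp68 (SD, n = 4 each). Their limma adjusted p values were 0.730 and 0.797. Col13a1, Fgf7 and Crnkl1 were lower in VCD by differences of -0.61, -0.56 and -0.54, and Slc10a5, Ms4a6a, Kbtbd11, Plec and Dcaf6 by -0.44 to -0.38.

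**Figure D4:**
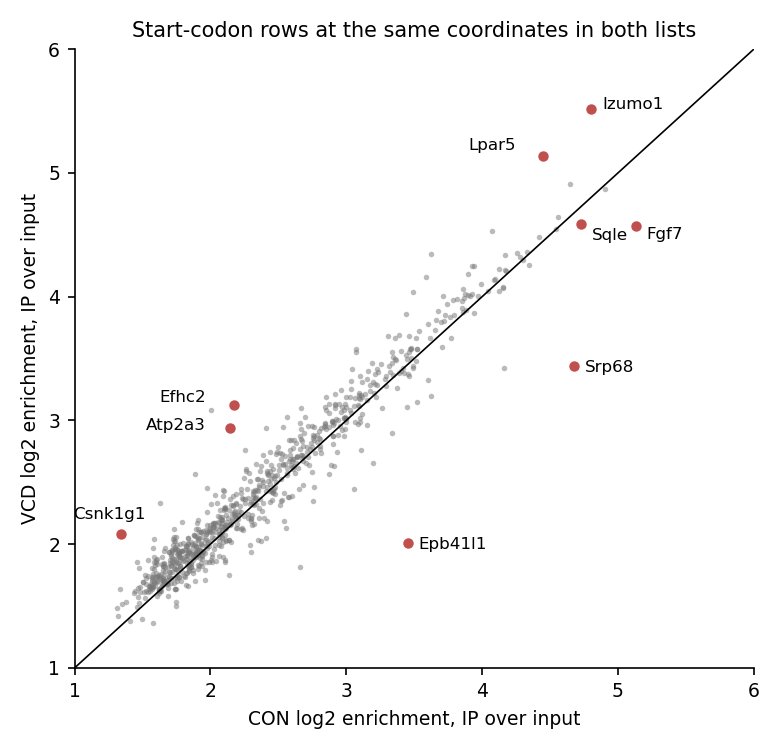
Log2 enrichment of IP over input in VCD (vertical axis) against CON (horizontal axis) for the 807 start-codon rows at the same coordinates, with the line of equal values. Most points lie just above the line (75.1%), and Epb41l1 and Srp68 stand farthest below it.

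The authors' deposited table of differential peaks held 734 start-codon rows among 5533 rows, and every p-value it gives is under 0.05, with none given for 5 rows. In the authors' deposited table, 632 of the start-codon rows were higher and 102 lower in VCD (86.1% higher, against 82.8% of all its rows), with a median difference of 0.23 against 0.19. The authors' deposited table marks rows whose log2 difference reaches 1 either way. Marked start-codon rows numbered 29 higher and 13 lower in VCD (5.72%), where 7.79% of all rows of the authors' deposited table were marked, 4.64% higher and 3.14% lower. At the authors' adjusted p under 0.05, 335 start-codon rows of the authors' deposited table passed, 296 higher and 39 lower in VCD, where 49.8% of all its rows passed. Only 18 higher and 7 lower start-codon rows of the authors' deposited table were both marked and under that adjusted p. Of its rows of all annotations, 130 higher and 92 lower were both. Of its 734 start-codon rows, 278 had the coordinates of a VCD start-codon row and 325 those of a CON start-codon row, and 298 had neither.

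Examples from the authors' deposited table were chosen after their values were seen. Casp6, an effector caspase, had 4.38 in VCD and 2.00 in CON, and Commd5, of the COMMD family, 5.50 and 3.49, in the authors' deposited table. Zfp36l2, a protein that promotes decay of AU-rich mRNAs and is needed in mouse oocytes, had 1.43 in VCD and 3.63 in CON in the authors' deposited table. Nusap1, a spindle protein, had 2.61 in VCD and 1.24 in CON, with an adjusted p of 5.01e-09 in the authors' deposited table. Trip13, a meiotic checkpoint ATPase, had 2.57 in VCD and 1.43 in CON, with an adjusted p of 0.108 in the authors' deposited table. Input FPKM of Casp6 averaged 7.15 in VCD and 6.74 in CON, and that of Zfp36l2 11.7 in VCD and 11.3 in CON (limma adjusted p 0.821 and 0.949). Nusap1 averaged 2.11 FPKM in VCD and 4.21 FPKM in CON (limma adjusted p 0.0739).

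Of the genes named in the series text, Mettl3, Alkbh5 and Bub1 had a start-codon row. Mettl3, the catalytic subunit of the writer, had 2.37 in VCD over 7756 bases and 2.34 in CON over 7176 bases, on the minus strand of chromosome 15 up to base 28721119. Mettl3 FPKM was 32.1, 35.1, 31.1 and 33.8 in VCD rats and 31.8, 36.1, 32.3 and 30.0 in CON rats, so the groups overlapped (limma adjusted p 0.906). Alkbh5, described above, averaged 20.6 ± 1.67 FPKM in VCD rats and 20.2 ± 0.527 FPKM in CON rats (SD, n = 4 each, limma adjusted p 0.898). Bub1, a spindle checkpoint kinase, had a CON start-codon row at 1.69 that met a VCD exonic row at 1.71. Bub1 FPKM was 1.54, 1.06, 1.77 and 0.734 in VCD rats and 4.36, 3.08, 3.72 and 2.80 in CON rats, without overlap and with a limma adjusted p of 0.0522. Fto and Cenpa had rows of other annotations in both lists, Polq exonic rows in CON only, and Igf2bp3 no row.

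Among 22 genes of the m6A machinery, 4 had a start-codon row in VCD and 5 in CON, and 0 of the 5 changed in expression. Mettl14, the partner of Mettl3, had 2.32 in VCD and 2.06 in CON, and Pcif1 2.17 and 2.37. Virma, the scaffold of the writer complex, had a VCD start-codon row of 35745 bases at 1.68 beside a VCD exonic row at 3.70, while its CON start-codon row ran 60785 bases at 3.47 and reached over both. The authors' deposited table gave Virma 3.66 in VCD and 3.45 in CON.

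Immediate-early and feedback genes, which answer growth and stress signals within minutes, had 10 of 30 members with a start-codon row in VCD and 5 in CON, all 5 of them in both lists. The 5 VCD-only rows met CON rows of other annotations. They were Jun, Fos, Dusp6 and Errfi1, inside CON stop-codon rows, and Fosb, whose VCD row at 3.23 met a CON 5′ UTR row at 4.11. Nr4a1, an orphan nuclear receptor, had 3.91 in VCD and 3.82 in CON, Nr4a2 3.53 and 3.12, and Nr4a3 2.93 and 2.65. Dusp1, a MAP kinase phosphatase, had 1.87 in VCD and 1.73 in CON, and Sik1, a salt-inducible kinase, 1.77 and 1.75.

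FPKM of several of these genes varied widely between VCD rats. Fos was at 121, 41.9, 11.7 and 161 FPKM in VCD rats and at 30.2, 31.0, 47.9 and 19.3 FPKM in CON rats (limma adjusted p 0.540). Nr4a1 was at 249, 128, 71.6 and 171 FPKM in VCD rats and at 49.6, 60.6, 55.5 and 45.7 FPKM in CON rats, without overlap and with a limma adjusted p of 0.0838. Jun was at 90.1, 51.7, 75.9 and 88.9 FPKM in VCD rats and at 54.6, 47.9, 58.5 and 50.8 FPKM in CON rats (limma adjusted p 0.163). VCD 3 was the lowest VCD rat for Fos and Nr4a1, and VCD 2 for Jun.

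Genes of meiosis, kinetochore and spindle had a start-codon row in 7 of 26 members in VCD and 8 in CON, 10 in either list. Spc25, of the outer kinetochore, was the only member at the same coordinates, with 2.73 in VCD and 2.48 in CON. Bub1b, a checkpoint kinase, had 2.41 in VCD and 2.04 in CON, Cdc20, the activator of the anaphase-promoting complex, 2.63 and 2.27, and Mad2l1, a checkpoint protein, 1.74 and 1.57. The row of Cdk1, the mitotic kinase, was in CON only, at 1.55, and overlapped no VCD row. Tpx2, a spindle assembly factor, had a start-codon row in VCD only, at 1.70, which met a CON 5′ UTR row. DNA repair genes had 5 of 21 in VCD and 6 in CON, among them Parp1 at 2.54 in VCD and 2.31 in CON, Xrcc6 at 2.63 and 2.68, and Rad50 at 2.42 and 1.77. The Rad50 row spanned 1225 bases in VCD and 4377 bases in CON, the Parp1 row 9507 and 13768, and the Xrcc6 row 7899 and 5447. None of the 7 repair genes with a start-codon row in either list changed in expression.

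Of 19 genes of p53, apoptosis and cell death, 7 had a start-codon row in either list, and all 7 had it in both. Bcl2l1 and Bcl2, which block apoptosis, had 4.32 and 3.88 in VCD and 4.28 and 3.86 in CON, and Cdkn1a, the cell-cycle inhibitor p21, 2.33 in VCD and 2.31 in CON. Of 15 FOXO and PI3K genes, 8 had a start-codon row in VCD and 9 in CON. Foxo4, a forkhead factor of the pathway, had 4.25 in VCD and 3.94 in CON, Irs2, an insulin receptor substrate, 2.98 and 2.84, and Rps6kb1, the S6 kinase, 3.02 and 2.98. None of the members of either list with a start-codon row changed in expression.

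Of the 14978 tested genes, 3429 had a start-codon row in either list. Of 22 listed oocyte genes Nlrp5 alone had such a row, in CON, and Nlrp14, described below, is not on that list. Of 16 granulosa genes 3 had it in VCD and 4 in CON: Inha, an inhibin subunit, at 1.82 in VCD and 1.74 in CON, Serpine2, a protease inhibitor, at 1.89 and 1.84, Fshr, the FSH receptor, at 1.83 over 102198 bases in VCD and 1.60 over 214 bases in CON, and Amhr2, the AMH receptor, in CON only at 1.82. Of 19 theca and steroidogenic genes 2 had it in VCD and 3 in CON. Sqle is given above, and Cyp11a1, the first enzyme of steroid synthesis, stood at 2.105 in VCD and 2.094 in CON. Hhip, a hedgehog antagonist, had a start-codon row in CON only, at 3.99, which met a VCD 5′ UTR row. Among 26 transcription factors of the SOX, FOX, HOX and GATA list, 5 had such a row in either list, with Gata4, of gonadal somatic cells, at 2.95 in VCD and 2.76 in CON and Tcf21, a stromal factor whose start is printed above, at 1.93 and 1.77. Of 17 oxidative stress genes 7 had one in VCD and 6 in CON, with Sod2, the mitochondrial dismutase, at 2.43 in VCD and 2.31 in CON and Gclc, of glutathione synthesis, at 2.11 and 2.24.

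Expression is the only readout here with a value per rat. Of the 3501 genes with a start-codon row in either list, 3429 passed the filter of a mean of at least 0.5 FPKM, and 17 of them changed by limma on log2(FPKM + 1), with 14 lower and 3 higher in VCD at an adjusted p under 0.05. That is 0.496% of them, where 0.447% of the 14978 tested genes changed (16 higher, 0.107%, and 51 lower, 0.34%). The count of 17 was 34 without VCD 3 and between 3 and 5 without VCD 2, VCD 4, CON 1, CON 2 or CON 3. The median log2 change was -0.07 for start-codon genes and -0.06 for all tested genes. It was -0.07 for genes with the row in VCD only and -0.11 for those with the row in CON only. Endothelial markers summed to 128 to 151 FPKM in VCD rats and 92.4 to 127 FPKM in CON rats, and T and B cell markers to 10.5 to 17.4 FPKM in VCD rats and 18.1 to 25.7 FPKM in CON rats, and their part in these counts was not tested. In whole ovary, fewer cells of a type and less RNA per cell cannot be told apart.

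Errfi1, which restrains EGF receptor signalling, was 1 of the 3 genes that rose, with 68.1, 59.1, 54.96 and 43.5 FPKM in VCD rats and 19.7, 18.7, 19.1 and 23.8 FPKM in CON rats (log2 change 1.42 ± 0.14 SE, limma adjusted p 0.00493). Its VCD start-codon row of 175 bases at 1.85 began 9589 bases into the gene, inside a CON stop-codon row of 12752 bases. Nr4a3 had 3.47, 4.30, 5.04 and 2.88 FPKM in VCD rats and 1.28, 0.697, 0.965 and 0.751 FPKM in CON rats (log2 change 1.34 ± 0.16 SE, limma adjusted p 0.0126). Dusp16, a MAP kinase phosphatase, had 56.0, 63.9, 55.7 and 55.1 FPKM in VCD rats and 25.6, 31.5, 32.4 and 40.7 FPKM in CON rats (log2 change 0.82 ± 0.13 SE, limma adjusted p 0.0349). Its start-codon row stood at 3.58 in VCD and 3.49 in CON. The groups did not overlap in any of these 3 genes, which were picked because limma called them. The share of all tested genes without overlap was not counted.

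The falls included maternal-effect genes of the oocyte whose start-codon row was in the CON list only. Nlrp14 had 0.427, 0.183, 0.299 and 0.242 FPKM in VCD rats and 2.63, 2.06, 2.66 and 1.64 FPKM in CON rats (log2 change -1.33 ± 0.14 SE, limma adjusted p 0.00493), with a CON row at 2.42. Nlrp5 had 0.196, 0.0535, 0.129 and 0.118 FPKM in VCD rats and 1.94, 1.15, 1.93 and 1.00 FPKM in CON rats (log2 change -1.14 ± 0.15 SE, limma adjusted p 0.0210), with a CON row at 2.30. Neither gene had a VCD row of any annotation. Nlrp14 averaged 0.288 FPKM and Nlrp5 0.124 FPKM in VCD rats, so both passed the filter of 0.5 FPKM only through the CON rats. They also joined the start-codon genes only through the CON list, so a fall beside a CON-only row follows in part from how genes were chosen. The summed FPKM of 5 oocyte markers (Zp1, Zp2, Zp3, Gdf9 and Bmp15) moved with them, at 5.65 to 8.82 in VCD rats and 19.9 to 32.9 in CON rats, none of the 5 at 0 on average, and their part in these results was not tested.

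Kcnk2, a potassium channel gene, had 1.14, 0.296, 0.212 and 0.338 FPKM in VCD rats and 2.95, 2.31, 2.91 and 1.74 FPKM in CON rats (log2 change -1.24 ± 0.20 SE, limma adjusted p 0.0429). Its start-codon row was in CON only, at 2.63, and met a VCD 5′ UTR row at 3.45. Kcnk2 averaged 0.497 FPKM in VCD rats, so it too passed the filter of 0.5 FPKM only through the CON rats. Igsf9, an immunoglobulin superfamily gene, had 3.76, 2.26, 1.70 and 2.85 FPKM in VCD rats and 8.46, 7.08, 7.85 and 5.55 FPKM in CON rats (log2 change -1.19 ± 0.18 SE, limma adjusted p 0.0349). Its start-codon row was in VCD only, at 2.24, where CON had a 5′ UTR row at 2.22. Psrc1, a spindle protein, had 2.55, 1.83, 1.87 and 1.75 FPKM in VCD rats and 8.43, 5.26, 5.94 and 4.25 FPKM in CON rats (log2 change -1.19 ± 0.18 SE, limma adjusted p 0.0308), with start-codon rows at 1.94 in VCD and 1.61 in CON.

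Spc25 had 1.49, 1.03, 1.81 and 1.07 FPKM in VCD rats and 4.66, 3.54, 3.83 and 2.60 FPKM in CON rats (log2 change -0.98 ± 0.16 SE, limma adjusted p 0.0455). The other 8 falls were Serpine2, Racgap1, Pimreg, Ska1, Ivns1abp, Col11a1, Stmn1 and Nt5e, named after their values were seen to complete the count. Racgap1, Pimreg, Ska1 and Stmn1 act in mitosis or on microtubules, and log2 changes of the 8 ran from -1.06 in Serpine2 to -0.57 in Nt5e. Of the 3 rises and the 5 largest falls, Errfi1, Nlrp14 and Nr4a3 remained when any 1 library was left out, while Dusp16, Igsf9, Kcnk2, Nlrp5 and Psrc1 each lost theirs without at least 4 of the 8 libraries, VCD 2, VCD 4, CON 1 and CON 3 among them for all 5.

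**Figure D5:**
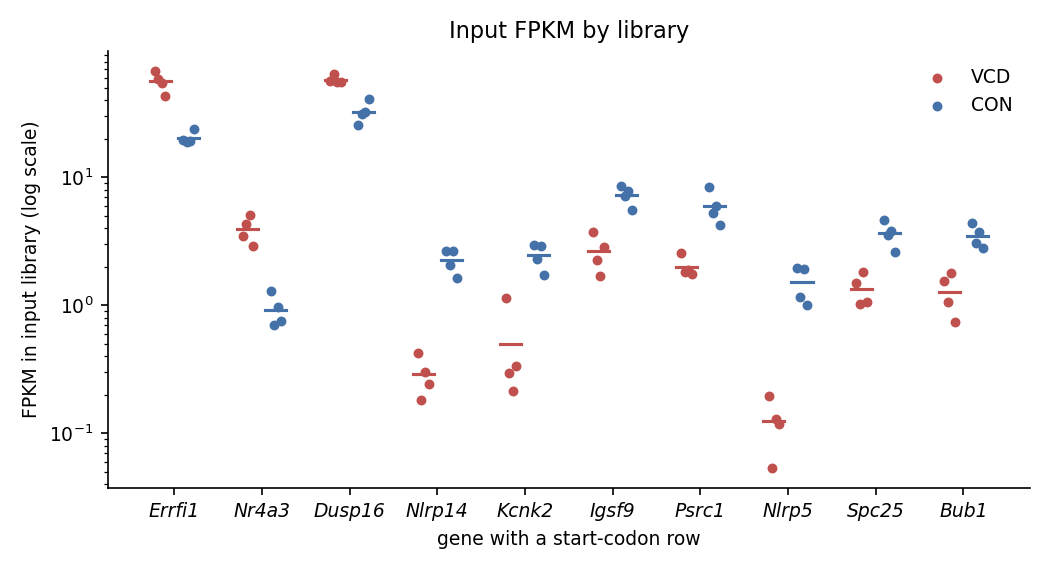
FPKM per input library on a log axis for 10 genes with a start-codon row, VCD rats in red and CON rats in blue, with the group mean as a line. Errfi1, Nr4a3 and Dusp16 are the 3 that were higher in VCD. All but Bub1 were called by limma, so the gap between the groups follows largely from how the genes were chosen.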

How the data were processed

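Poly(A) RNA of 8 rat ovaries was sequenced as m6A IP and as input, per the labels' protocols. The authors deposited FPKM per gene and input library (22663 genes), per the file headers. The peak lists hold a log2 enrichment, a p-value and an adjusted p-value per row, deposited by the authors as 1 value per group. Another deposited table compares the log2 enrichment of VCD and CON. The submitters' processing notes name HOMER 4.10, edgeR 4.1, StringTie 2.1.2, HISAT2 2.0.4 and fastp 0.19.4 without their roles, and GRCh38 as a build. These sources name no peak caller.

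Deposited starts on the plus strand lay 1 below the gene start in 1650 VCD rows and 1701 CON rows and equal to it in 0, so 1 was added. Rows were compared between lists on the same strand with an overlap of at least 1 base. The 14978 genes averaging 0.5 FPKM or more were tested with limma 3.58.1 in R 4.3.3 (eBayes with trend) on log2(FPKM + 1), a scale that understates changes of low genes, with Benjamini-Hochberg adjustment over all of them and a threshold of 0.05. Titles number the rats of each group and do not say whether animals were pooled, so p-values measure the spread between these samples. Low FPKM values shared no step (0.821% of 1340 ratios at the modal value), so reads were not recovered.

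The genes described were the 7 of the series text, the 10 highest rows at the same coordinates, the 10 largest differences either way and the 5 widest there, the 5 highest rows of a list without overlap, up to 4 such members of each gene list, and the 5 largest rises and falls among called genes, of which 3 rose. Width was taken as genomic span, since the files hold no blocks, and with the shifted starts it is 1 base below the deposited length. Other genes, Jun, Fos, Virma, Cdc20, Rad50, Fshr and Spc25's expression among them, were added after their values were seen. The members and gene lists were chosen with earlier results of these data known. Sequences are RefSeq's for GRCr8, matched by symbol or synonym at the most upstream start.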

Additional observations from a re-analysis of the deposited data

Results flagged for a closer look

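In 5 genes 1 rat stood apart from the other 3 of its group in FPKM, by Dixon's criterion at the 95% level, which flags about 1 in 20 groups by chance (41 groups were looked at). Dusp16 was at 63.9 FPKM in VCD 2, against 55.1 to 56.0 FPKM in the other VCD rats. Kcnk2 was at 1.14 FPKM in VCD 1, against 0.212 to 0.338 FPKM, and Psrc1 at 2.55 FPKM in VCD 1, against 1.75 to 1.87 FPKM. CON 3 had 9.16 FPKM of Fosb, while the other CON rats had 0.651 to 1.07 FPKM. CON 3 also had 0.0809 FPKM of Rec8, while the other CON rats had 0 to 0.00921 FPKM.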

How the results depend on the processing

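The count of 17 start-codon genes that changed in expression depended on the settings. It was 9 with no filter on low values, 1 at a mean of at least 5 FPKM, and 9 among genes with the row in both lists. A pseudocount of 0.1 gave 15, scaling to a common median 16 and quantile normalization 14. Same-numbered VCD and CON libraries deviated from their group means with correlations of -0.01, -0.09, 0.01 and -0.07, so the numbers were not taken to pair rats. The samples also carry a batch number, equal to the replicate number in each group, and its meaning is not stated. A fit with this number as a replicate block gave 8 genes, of which 5 were among the 17. The part of batch in the count was not tested further. Leaving out 1 library gave between 3 and 34 genes: 13 without VCD 1, 5 without VCD 2, 34 without VCD 3, 3 without VCD 4, CON 1 or CON 3, 4 without CON 2 and 20 without CON 4. Under the block, Errfi1 (adjusted p 0.0451), Nlrp14 (0.0426), Psrc1 (0.0426) and Nr4a3 (0.0453) kept their calls, and Dusp16 (0.0721), Igsf9 (0.0665), Kcnk2 (0.0653) and Nlrp5 (0.0620) did not. With no filter on low values Psrc1 (0.0535), Igsf9 (0.0625), Kcnk2 (0.0687) and Dusp16 (0.0521) lost their calls, Kcnk2 also with a pseudocount of 0.1 (0.0624), and Dusp16 also with quantile normalization (0.0529) or a mean of at least 5 FPKM (0.0647). None of these 8 log2 changes turned its sign under any alternative run. The groups did not overlap in any of the 8, so leaving out a library, the block or another pseudocount could not turn a sign. An adjusted p under 0.01 with a log2 enrichment of at least 2 left 1646 VCD and 1594 CON start-codon rows, with a stop-codon row of the same strength in 48.6% of VCD genes and 46.2% of CON genes. The VCD minus CON median stayed at 0.08 to 0.09 with other overlap rules or p limits and was 0.0128 after centring on all annotations. By adjusted p under 0.05, 335 start-codon rows of the authors' deposited table counted in place of 42. FPKM holds no read totals and enrichment no replicate values, which limits every comparison above.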
